A study of Mus musculus with 12 samples.

Results

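The integrated stress response (ISR) is described here by 10 genes: the transcription factor *Atf4*, its partners *Atf5* and *Ddit3*, and the target genes *Asns*, *Trib3*, *Chac1*, *Sesn2*, *Psat1*, *Phgdh* and *Ddit4*. They were taken by gene name, as *Atf4* and its targets, from the 46517 genes counted in the files, and all 10 were among the 15673 genes tested, which exceeded 1 CPM (reads of a gene scaled to a fixed library size) in some sample. All 10 are protein-coding genes, counted over their exons on GRCm38, among them *Atf4* at chr15:80255184-80257541, *Atf5* at chr7:44812256-44816658, *Phgdh* at chr3:98313170-98339990 and *Ddit4* at chr10:59949669-59951834. The RNA came from a mouse ESC line of C57BL/6 background that carries an EGFP reporter in the *Eomes* gene and was grown on embryonic fibroblast feeders. WT cells of this line were compared with *Meteor* KO cells of the same line, in which CRISPR-Cas9 nickase removed the transcribed enhancer *Meteor*. Each genotype was sampled as undifferentiated ESCs (day 0) and after 3 days of differentiation as embryoid bodies started in hanging drops (day 3), with 3 replicates in each of the 4 groups. The KO lines were grown from individually picked clones. Which clone or clones gave this RNA, and whether the replicates were separate cultures, is not given in the sources used here, so p-values measure the spread between these samples only.

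In the ISR, kinases that sense amino acid shortage, unfolded proteins, viral RNA or lack of heme phosphorylate the translation initiation factor eIF2α. Most translation then slows, while the *Atf4* mRNA, whose upstream open reading frames normally hold its translation down, is read more, and the ATF4 protein switches on genes for amino acid synthesis, amino acid import and tRNA charging. If stress lasts, ATF4 also raises *Ddit3* (the protein CHOP), *Trib3* and *Chac1*, which tie the response to cell death and to its own shutdown. Control of ATF4 is largely at translation, which mRNA counts do not measure.

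ATF4 pairs with C/EBP proteins on a composite site, the C/EBP-ATF response element, whose core letters are TGATGNAA. These letters were searched on both strands of 300 bases of RefSeq promoter sequence (GRCm38.p6), from 250 bases before each transcription start to 50 after it. They occurred in 3 of the 10 members, *Asns*, *Chac1* and *Trib3*, and in 4.51% of 27025 genes with such a window. In *Asns* the stretch printed below lies at chr6:7693216-7693241 on the minus strand, which is the strand of the gene. The first letter of its core is 23 bases before the start. In *Chac1* the printed stretch lies at chr2:119351040-119351065 on the minus strand, opposite to the gene, with the core base furthest upstream 193 bases before the start. In *Trib3* the printed stretch lies at chr2:152344030-152344055 on the plus strand, opposite to the gene, with the core base furthest upstream 14 bases after the start. Among the ISR genes outside the 10, *Nupr1*, *Slc7a11* and *Atf3* are shown because their values are described further on, each 5′ to 3′ on the strand that carries the core, with the core in capitals. Their printed stretches lie at chr7:126625564-126625589 (plus strand), chr3:50443663-50443688 (minus) and chr1:191183427-191183452 (plus) in that order. *Slc7a11* holds a second match, not shown.
Asns: ccagccacaTGATGAAActtcccgca
Chac1: tggcaggagTGATGCAAcggcaggga
Trib3: ccgcccggcTGATGTAAacctgagct
Nupr1: agccctgtcTGATGCAAtctggccct
Slc7a11: tcatgtggcTGATGCAAacctggaga
Atf3: cggacttggTGATGCAAgtgcgagaa
Of the other ISR genes with a promoter window, 15 of 52 (28.8%) held the letters, among them 5 of 12 tRNA synthetase genes. No match in a window says only that these letters are not in it, and a match is a description of the sequence.

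The 12 samples held between 17455927 and 23910943 reads counted on genes, so 1 CPM stood for close to 20 reads. The labelled states carried their markers. The summed level of 6 pluripotency markers at day 0 was 2616 to 3114 CPM in WT and 3466 to 3851 CPM in *Meteor* KO. At day 3 it was 596 to 1119 CPM in WT, where the lowest value was replicate 3, and 1096 to 1187 CPM in *Meteor* KO. The 6 primitive streak markers summed to 834 to 1715 CPM in WT and 75 to 150 CPM in *Meteor* KO at day 3. All 9 feeder fibroblast markers had counts in each group, with sums of 75.4 to 349 CPM at day 0 and 36.7 to 82.4 CPM at day 3. The 6 visceral endoderm markers summed to 7.32 to 37.2 CPM at day 0 and 9.47 to 60.7 CPM at day 3. In bulk RNA of this kind, fewer cells of a type and less RNA per cell cannot be told apart. A pair of transcripts of the deleted locus checked the labels: *2610509F24Rik* stood at 1.35 to 5.84 CPM in WT and had no read in any of the 6 *Meteor* KO samples, and *Platr11* stood at 0.513 to 6.12 CPM in WT and at or below 0.0551 CPM in *Meteor* KO.

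Before any comparison, the members fell into strongly and weakly expressed genes. On the scale of CPM per kilobase of exon, in WT cells at day 0, *Psat1* stood at 113 ± 38.7 (SD, n = 3), *Atf4* at 110 ± 11.8 and *Asns* at 90.9 ± 40.4, and these 3 did not differ beyond their spread. *Sesn2* followed at 53.4 ± 9.24 and *Ddit4* at 39.6 ± 25.4, where the spread of *Ddit4* covers *Sesn2* but not the reverse. The lower members were *Phgdh* (16.7 ± 3.38), *Atf5* (12.2 ± 6), *Trib3* (10.7 ± 6.13), *Ddit3* (6.96 ± 5.01) and *Chac1* (3.5 ± 1.38 CPM per kilobase). Each in this order lay within the spread of the next, except *Ddit3*, which lay above that of *Chac1* while its own spread covers *Chac1*. At day 3 in WT the order changed at the top: *Ddit4* led with 220 ± 154 CPM per kilobase, ahead of *Atf4* at 76.9 ± 9.12, although the spread of *Ddit4* covers *Atf4*. The weakest member, *Chac1*, stayed between 2.04 and 7.43 CPM in all 12 samples.

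**Figure D1:**
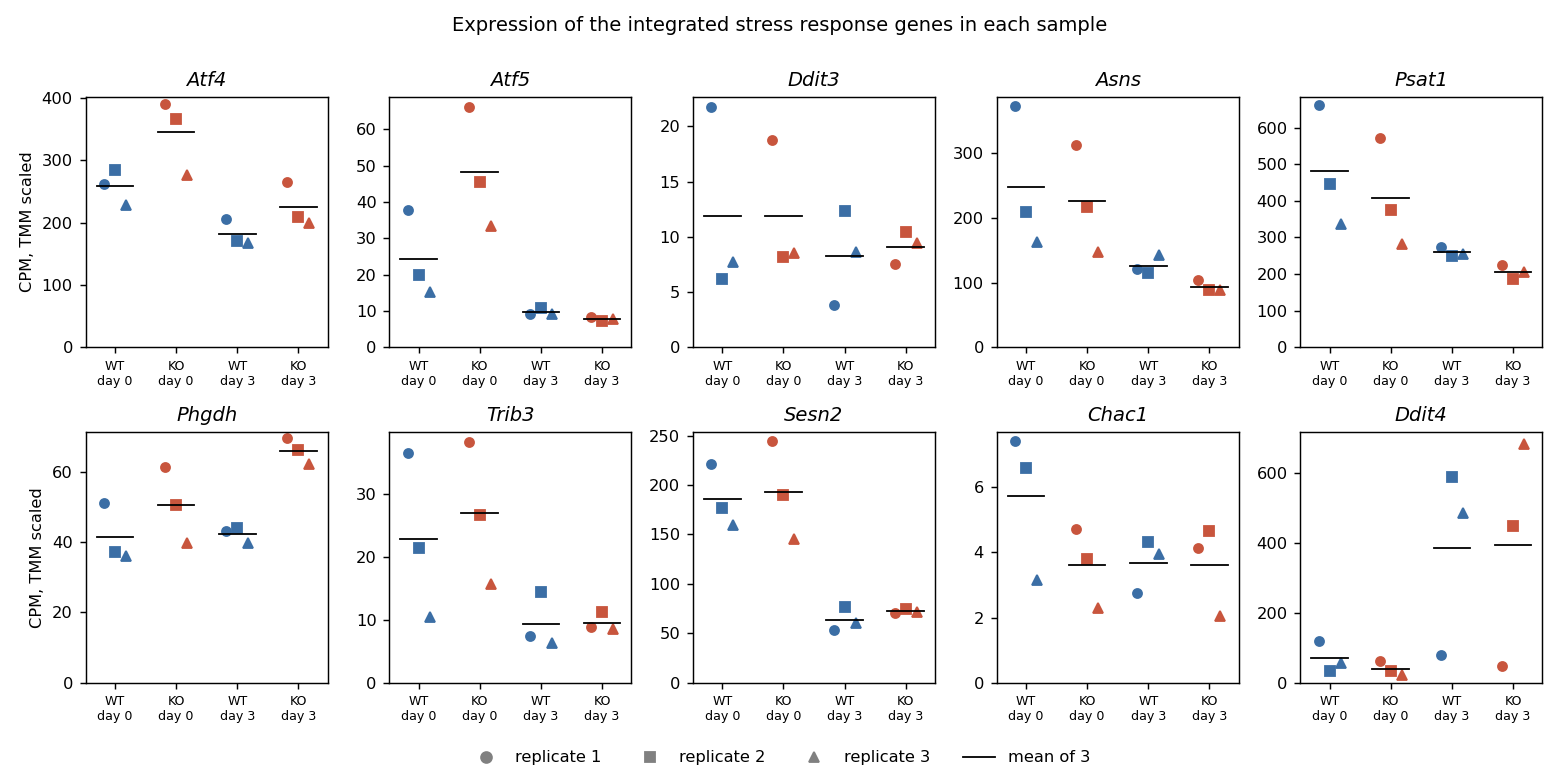
Level of each of the 10 genes in each sample (y axis, CPM scaled by TMM, starting at 0) in the 4 groups, with 1 marker shape per replicate number and a line at the mean of 3. Atf4, Atf5, Trib3, Sesn2, Asns and Psat1 were called lower at day 3 than at day 0 in both genotypes, Atf4 is higher in Meteor KO at both days, and Ddit4 at day 3 splits into replicate 1 (80 and 47.7 CPM) and the rest (450 to 685 CPM).

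The first question was whether deletion of *Meteor* moved the ISR genes in undifferentiated ESCs. At day 0, 2 of the 10 members passed the test, both transcription factors and both higher in *Meteor* KO. The test called 20.4% of all genes in this comparison, 9.56% higher and 10.9% lower, so the share of members called matched that of all genes. No member had its groups apart at day 0, while 34.2% of all genes did. The median log2 fold change of the members was 0.04, against -0.01 over all tested genes.

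*Atf4*, the central activator of the response, stood at 262, 284 and 229 CPM in WT replicates 1 to 3 and at 391, 367 and 277 CPM in *Meteor* KO replicates 1 to 3 at day 0. KO was higher within each of the 3 replicate numbers, but the lowest KO sample lay below the highest WT sample, so the groups overlapped. The difference was 0.41 ± 0.10 on the log2 scale (± SE, 1.33-fold, adjusted p = 0.0149). Without the replicate number as a block it had the same size but missed the threshold (0.42, adjusted p = 0.077), and it missed it also when WT replicate 1 or 3 or KO replicate 1 or 2 of day 0 was left out, with adjusted p up to 0.0795. Without both day 0 samples numbered 1, a setting chosen after seeing the data, it was 0.33 (adjusted p = 0.0553).

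*Atf5*, a related factor that is itself a target of ATF4 and is also held down at translation, showed the largest rise of the 10. It stood at 37.9, 19.9 and 15.3 CPM in WT and at 66.1, 45.4 and 33.3 CPM in *Meteor* KO at day 0. Again KO was higher within each number, and the groups overlapped only through WT replicate 1, which exceeded KO replicate 3. The difference was 1.01 ± 0.23 (2.02-fold, adjusted p = 0.0133), and it passed the threshold under the 10 other settings tried, aside from those that left out 1 sample. Leaving out WT replicate 2 or 3 or KO replicate 1 or 2 of day 0 raised the adjusted p to at most 0.0673. Summed marker levels also differed between the genotypes in these samples. The pluripotency markers summed to 3114, 2887 and 2616 CPM in WT and 3851, 3769 and 3466 CPM in KO. The feeder markers summed to 75.4, 261 and 129 CPM in WT and 122, 349 and 214 CPM in KO. Both sums were higher in KO within each number. Gene by gene, edgeR called 1 of 6 pluripotency markers higher (16.7%, against 9.56% of all genes) and 0 of 8 tested feeder markers. *Sox2* was lower in KO within each number. The part of these markers in the *Atf4* and *Atf5* differences was not tested.

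*Ddit3*, the factor that links the response to cell death, was not called. Its day 0 levels were 21.8, 6.21 and 7.77 CPM in WT and 18.8, 8.21 and 8.58 CPM in *Meteor* KO, so both groups had 1 high sample, replicate 1. The log2 difference was 0.02 ± 0.52 (adjusted p = 0.983), with an error that leaves sizeable changes in either direction undetectable.

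Among the members that feed back on the response or restrain growth, none passed the test at day 0. *Trib3*, a pseudokinase that inhibits ATF4 and CHOP, stood at 36.5, 21.4 and 10.5 CPM in WT and 38.2, 26.7 and 15.7 CPM in *Meteor* KO (log2 difference 0.28 ± 0.32, adjusted p = 0.593). *Sesn2*, which reports leucine shortage to mTORC1, stood at 221, 177 and 159 CPM in WT and 244, 190 and 145 CPM in *Meteor* KO (0.05 ± 0.17, adjusted p = 0.866). For both genes the groups overlapped and replicate 1 was the highest sample of each genotype. *Chac1*, which degrades glutathione, stood at 7.43, 6.58 and 3.17 CPM in WT and 4.71, 3.8 and 2.3 CPM in *Meteor* KO, lower in KO within each number (-0.65 ± 0.31, adjusted p = 0.176). *Ddit4*, an mTORC1 inhibitor that hypoxia also induces, stood at 119, 32.9 and 56.6 CPM in WT and 61.5, 33.2 and 23.2 CPM in *Meteor* KO (-0.83 ± 0.93, adjusted p = 0.58).

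The 3 enzymes of amino acid synthesis gave small day 0 differences of unlike sign. *Asns*, which makes asparagine, stood at 373, 209 and 163 CPM in WT and 313, 216 and 147 CPM in *Meteor* KO (-0.13 ± 0.23, adjusted p = 0.747). *Psat1*, of the serine pathway, stood at 661, 445 and 338 CPM in WT and 571, 374 and 281 CPM in *Meteor* KO, lower in KO within each number (-0.24 ± 0.17, adjusted p = 0.368). *Phgdh*, the first enzyme of the same pathway, stood at 51.1, 37.2 and 36 CPM in WT and 61.4, 50.4 and 39.8 CPM in *Meteor* KO, higher in KO within each number (0.28 ± 0.12, adjusted p = 0.115). All 3 sets of groups overlapped. A share of 37.3% of the 100-base words of the *Phgdh* transcript occurs in 8 other annotated genes, and reads that align to several places were not counted, so the level of *Phgdh* is uncertain while its ratio between samples rests on the remaining reads.

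The sample numbers tied WT and KO samples of 1 day together, and this decided several calls. With a separate block for the numbers within each day, 5 members passed at day 0, against 34.8% of all genes under that fit. *Atf4* (0.41, adjusted p = 0.00139), *Atf5* (1.03, adjusted p = 0.000169) and *Phgdh* (0.28, adjusted p = 0.0161) were then higher in *Meteor* KO. *Psat1* (-0.24, adjusted p = 0.0066) and *Ddit4* (-0.76, adjusted p = 0.0494) were lower. WT replicate 1 (119 CPM, against 32.9 and 56.6 CPM) decides the *Ddit4* difference, which in the fit with 1 block over both days turned to 0.73 (adjusted p = 0.694) without that sample.

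At day 3 the question was the same in differentiating cells, and again 2 of the 10 members passed, both higher in *Meteor* KO. The test called 30.9% of all genes in this comparison (14.3% higher, 16.7% lower), a larger share than among the members. The groups were apart for 4 of 10 members, 1 above WT and 3 below, and for 43.8% of all genes. The median log2 fold change was 0.04 over the members and -0.00 over all tested genes.

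*Phgdh* gave the clearest difference between the genotypes. It stood at 43.2, 43.9 and 39.6 CPM in WT and at 69.6, 66.1 and 62.3 CPM in *Meteor* KO at day 3, with the groups apart. The difference was 0.64 ± 0.12 on the log2 scale (1.56-fold, adjusted p = 0.00277), and *Phgdh* passed in each of the 12 fits that left out 1 sample, with adjusted p of at most 0.0157. Of all tested genes, 20.8% had the 3 KO samples wholly above the 3 WT samples at day 3, and *Phgdh* was the only member among them.

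*Atf4* stood at 206, 171 and 167 CPM in WT and at 266, 209 and 200 CPM in *Meteor* KO at day 3. KO was higher within each number, and the groups overlapped only because WT replicate 1 exceeded KO replicate 3. The difference was 0.31 ± 0.10 (1.24-fold, adjusted p = 0.0358). It missed the threshold without the block (0.31, adjusted p = 0.148) and when WT replicate 1 or 2 or KO replicate 1 or 3 of day 3, or WT replicate 3 of day 0, was left out (adjusted p up to 0.136). Without both day 3 samples numbered 1 it was 0.32 (adjusted p = 0.0596). At day 3 edgeR called 3 of 6 pluripotency markers (50%) and 3 of 8 tested feeder markers (37.5%) higher in KO. It called 0 of either list lower, and 14.3% of all genes higher. The part of these markers in the *Phgdh* and *Atf4* differences was not tested.

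*Atf5* did not keep its day 0 difference. At day 3 it stood at 9.19, 10.7 and 9.24 CPM in WT and 8.3, 7.22 and 7.74 CPM in *Meteor* KO, so each KO sample now lay below each WT sample (-0.33 ± 0.25, adjusted p = 0.334). The difference between the genotypes thus changed from day 0 to day 3 by -1.35 ± 0.34 on the log2 scale (adjusted p = 0.0248). *Atf5* was the only member called in this test of genotype by day, which called 15.5% of all genes, 7.34% in this direction. The call was lost without the block (-1.31, adjusted p = 0.068) and when any of 8 samples was left out, namely replicate 2 or 3 of either WT group or replicate 1 or 2 of either KO group, with differences of -1.34 to -1.17 in those fits.

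*Asns* and *Psat1* also lay wholly below WT at day 3, where 23% of all genes did so. *Asns* stood at 121, 115 and 143 CPM in WT and 104, 88.9 and 88.7 CPM in *Meteor* KO (-0.46 ± 0.23, adjusted p = 0.159). *Psat1* stood at 275, 249 and 256 CPM in WT and 225, 187 and 207 CPM in *Meteor* KO (-0.34 ± 0.17, adjusted p = 0.165). With the block within each day both were called lower, *Asns* at -0.43 (adjusted p = 0.00456) and *Psat1* at -0.34 (adjusted p = 0.000874), as 2 of 4 members called against 46.9% of all genes. The same fit also called the change of the *Phgdh* difference between the days (0.36, adjusted p = 0.0264), as 1 of 2 members called against 31.2% of all genes, which the fit with 1 block over both days did not (0.36 ± 0.16, adjusted p = 0.166).

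For 5 members the genotypes did not differ at day 3 beyond the spread between replicates. *Sesn2* stood at 53.7, 76.3 and 60.7 CPM in WT and 70.3, 74.7 and 71.1 CPM in *Meteor* KO (0.18 ± 0.17, adjusted p = 0.447). *Trib3* stood at 7.42, 14.4 and 6.38 CPM in WT and 8.85, 11.2 and 8.49 CPM in *Meteor* KO (0.08 ± 0.33, adjusted p = 0.883). Both genes overlapped between the groups. *Ddit3* stood at 3.82, 12.3 and 8.62 CPM in WT and 7.55, 10.4 and 9.41 CPM in *Meteor* KO (0.11 ± 0.53, adjusted p = 0.894). *Chac1* stood at 2.75, 4.33 and 3.95 CPM in WT and 4.15, 4.66 and 2.04 CPM in *Meteor* KO (-0.14 ± 0.32, adjusted p = 0.774). All of these ranges overlapped too, and *Ddit4*, with its wide day 3 range described further on, came to -0.00 ± 0.90 (adjusted p = 1).

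**Figure D2:**
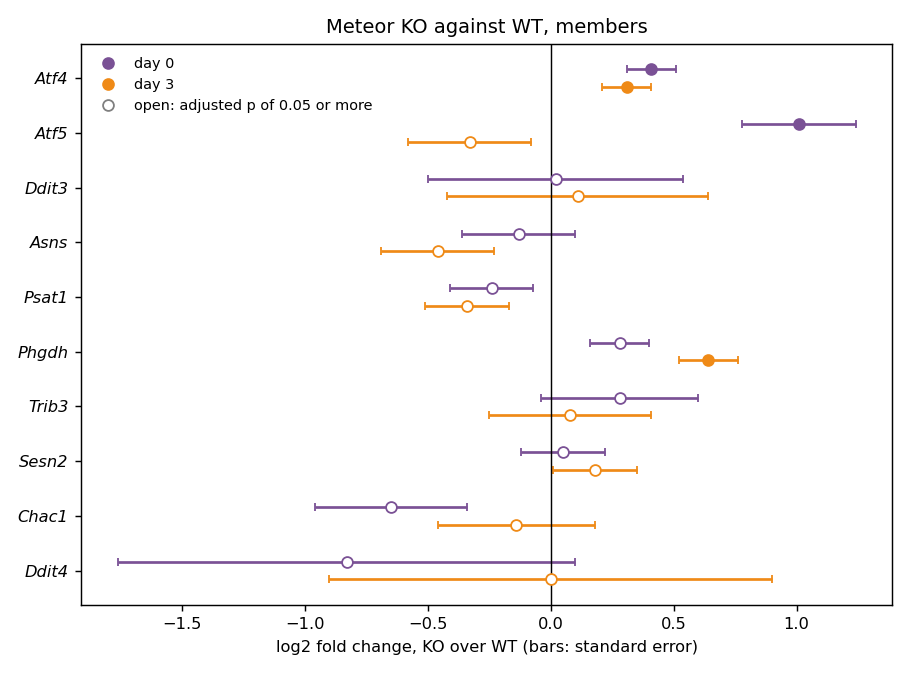
Log2 fold change of Meteor KO over WT for each member at day 0 and day 3 (x axis, 0 means no difference), with the standard error as a bar. Points are filled where the adjusted p was below 0.05: Atf4 at both days (0.41 and 0.31), Atf5 at day 0 (1.01) and Phgdh at day 3 (0.64).

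The KO line also differed from WT in *Upf3b*, a factor of nonsense-mediated mRNA decay, the pathway known to degrade the *Atf4* mRNA through its upstream open reading frames. *Upf3b* stood at 45.5 to 55.9 CPM over the 6 WT samples, at 0.224 to 0.661 CPM in *Meteor* KO at day 0, and at 0, 0 and 0.0416 CPM in *Meteor* KO at day 3. Its part in the levels of *Atf4* and *Atf5* cannot be told apart from that of the deletion, since it moved with genotype in each sample.

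The larger movement was over time. From day 0 to day 3, 6 of the 10 members fell in WT and 0 rose, and the same 6 members, *Atf4*, *Atf5*, *Trib3*, *Sesn2*, *Asns* and *Psat1*, fell in *Meteor* KO, where 2 rose, *Ddit4* and *Phgdh*. In WT the edgeR test called 56.2% of all genes, 30.7% higher and 25.5% lower, against 60% of the members lower. The 0 that rose in WT were also 0 at an unadjusted p below 0.05 and with DESeq2, and 1 with limma-voom. In KO it called 56.6% of all genes, 29.4% higher and 27.2% lower, against 20% of the members higher and 60% lower. The days were apart in WT for 5 members, all lower (25.9% of all genes lower, 31.9% higher, 57.8% in all), and in KO for 6 lower and 1 higher (30.1% and 32.5% of all genes, 62.6% in all). The median log2 fold change of the members was -0.68 in WT, where that of all tested genes was 0.07, and -0.77 in KO, where that of all genes was 0.03. WT and KO were compared with their own day 0 samples, so these are separate sets of 6 samples that share the replicate block.

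Of the transcription factors, *Atf4* and *Atf5* fell and *Ddit3* was not called. The day 3 levels of *Atf4* (167 to 206 CPM in WT) lay wholly below its day 0 levels (229 to 284 CPM), a change of -0.51 ± 0.10 (adjusted p = 0.00136), and in KO the change was -0.62 ± 0.10 (adjusted p = 0.000399). *Atf5* fell in KO from 33.3 to 66.1 CPM down to 7.22 to 8.3 CPM, a change of -2.58 ± 0.25 or 0.168-fold (adjusted p = 1.82e-05). In WT it fell by less, from 15.3 to 37.9 CPM down to 9.19 to 10.7 CPM (-1.23 ± 0.24, adjusted p = 0.00184). For *Ddit3* the days overlapped in both genotypes, with changes of -0.38 ± 0.55 in WT (adjusted p = 0.581) and -0.29 ± 0.53 in KO (adjusted p = 0.668). Both turned positive, 0.41 and 0.40, when the 2 day 0 samples numbered 1 were left out, a setting chosen after seeing the data.

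Of the feedback and growth genes, *Sesn2* fell furthest in WT. It went from 159 to 221 CPM at day 0 to 53.7 to 76.3 CPM at day 3 (-1.53 ± 0.17, adjusted p = 6.52e-05), and in KO from 145 to 244 CPM to 70.3 to 74.7 CPM (-1.40 ± 0.17, adjusted p = 8.03e-05). *Trib3* fell as well, by 1.20 on the log2 scale in WT (SE 0.33, adjusted p = 0.0119), where WT replicate 2 at day 3 (14.4 CPM) overlapped WT replicate 3 at day 0 (10.5 CPM). In KO its days were apart (-1.40 ± 0.33, adjusted p = 0.00484). Leaving out replicate 1 of WT at either day brought the WT adjusted p of *Trib3* to at most 0.0518. *Chac1* gave -0.53 ± 0.31 in WT (adjusted p = 0.176) and -0.02 ± 0.31 in KO (adjusted p = 0.97), with overlapping days in both.

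The enzymes separated into a pair that fell and *Phgdh*, which did not. *Asns* fell in WT from 163 to 373 CPM down to 115 to 143 CPM (-0.88 ± 0.23, adjusted p = 0.00883) and in KO from 147 to 313 CPM down to 88.7 to 104 CPM (-1.21 ± 0.23, adjusted p = 0.0014). *Psat1* fell in WT from 338 to 661 CPM down to 249 to 275 CPM (-0.83 ± 0.17, adjusted p = 0.00254) and by a like amount in KO (-0.93 ± 0.17, adjusted p = 0.00122). For both genes the days were apart in both genotypes, and the 3 day 3 samples lay closer together than the 3 day 0 samples. *Phgdh* gave 0.04 ± 0.12 in WT (adjusted p = 0.768) and rose in KO from 39.8 to 61.4 CPM to 62.3 to 69.6 CPM (0.40 ± 0.12, adjusted p = 0.0128). The KO rise missed the threshold without the block (0.39, adjusted p = 0.0627) and without replicate 3 of either KO group (adjusted p of 0.0663 and 0.0707).

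**Figure D3:**
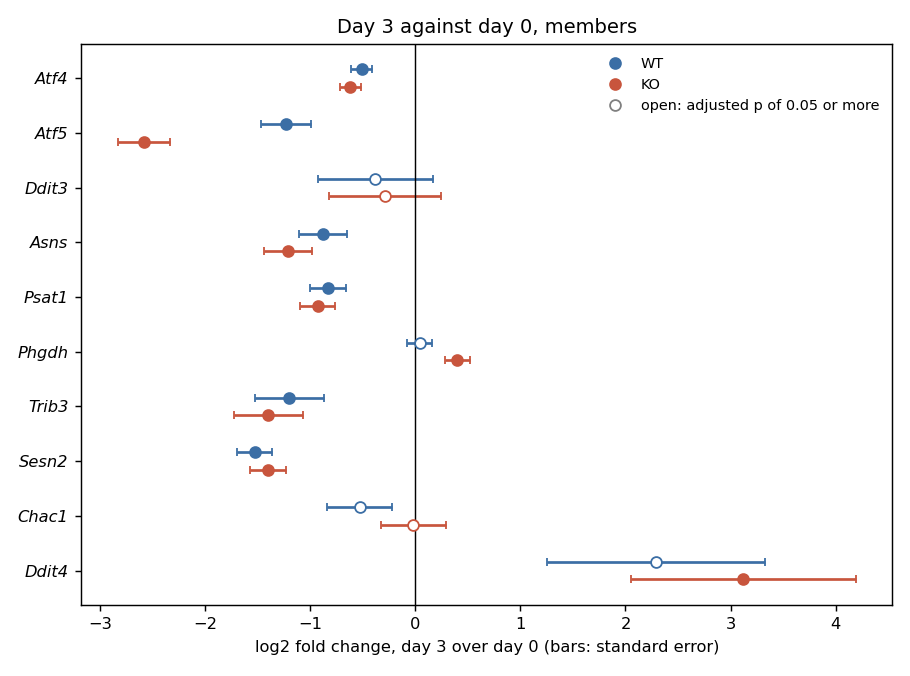
Log2 fold change of day 3 over day 0 for each member in WT and in Meteor KO (x axis), with the standard error as a bar and filled points for an adjusted p below 0.05. Atf4, Atf5, Trib3, Sesn2, Asns and Psat1 lie left of 0 and are filled in both genotypes, while Ddit4 lies far to the right with the widest errors (1.04 in WT and 1.07 in KO).

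*Ddit4* moved the other way. At day 3 it stood at 80, 590 and 486 CPM in WT and at 47.7, 450 and 685 CPM in *Meteor* KO, so replicate 1 of each genotype stayed within the day 0 range (23.2 to 119 CPM) and the other 4 samples were far above it. The change was 3.12 ± 1.07 on the log2 scale in KO (8.71-fold, adjusted p = 0.0292) and 2.29 ± 1.04 in WT (4.89-fold, adjusted p = 0.0847). In KO the call was lost when replicate 2 or 3 of either KO group or WT replicate 3 of day 0 was left out (log2 changes of 2.31 to 2.94, adjusted p up to 0.128). Without both day 3 samples numbered 1, a setting chosen after seeing the data, the WT change was 3.51 with an adjusted p of 3.02e-05. The WT change also passed without the block (2.47, adjusted p = 0.0309).

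The 10 hypoxia genes, transcripts that the HIF factors are known to raise, split the day 3 samples in the same way. Their summed level was 728, 2711 and 1647 CPM in WT replicates 1 to 3 and 1261, 2663 and 2012 CPM in *Meteor* KO. Replicate 1 was the lowest of 3 in both genotypes for 10 of 10 hypoxia genes and for 3 of 10 members, *Ddit3*, *Sesn2* and *Ddit4*, against 24.1% of all genes. Over time, 0 of the 10 hypoxia genes were called by edgeR in WT, with a median log2 fold change of 1.03 (0 at an unadjusted p below 0.05 and by DESeq2, 1 by limma-voom), and 1, *Pdk1*, was called in KO (0.55 ± 0.21, adjusted p = 0.0443). Whether oxygen in the hanging drops set the level of *Ddit4* was not tested.

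At day 0 the numbers separated the samples in another way. Replicate 1 was the highest of 3 in both genotypes for 9 of the 10 members, all but *Atf4*, against 25.3% of all genes. The same held for 42 of 69 other ISR genes and 9 of 10 hypoxia genes, but for 2 of 14 ER chaperone genes. The size was large against the genotype differences: *Asns* stood at 373 CPM in WT replicate 1 and 163 CPM in WT replicate 3, and at 313 and 147 CPM in the KO samples of the same numbers. In these samples the feeder fibroblast markers ran the other way in replicate 1, with sums of 75.4 CPM in WT and 122 CPM in KO against 129 to 349 CPM in the other 4 day 0 samples. The sum of the visceral endoderm markers also ran the other way, at 7.32 CPM in WT and 7.73 CPM in KO in replicate 1 against 16 to 37.2 CPM in the other 4. This came mainly from 1 gene, *Cubn*, at 2.78, 31.9 and 12.2 CPM in WT and 4.99, 31.1 and 28 CPM in KO. No other marker of this list exceeded 2.65 CPM at day 0, and *Rbp4* in KO was highest in replicate 1 (2.13, 1.82 and 1.07 CPM). The part of other cells in these levels was not tested. Without both day 0 samples numbered 1, a setting chosen after seeing the data, the 6 falling members still passed in both genotypes, with smaller WT changes for *Trib3* (-0.68) and *Asns* (-0.57).

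**Figure D4:**
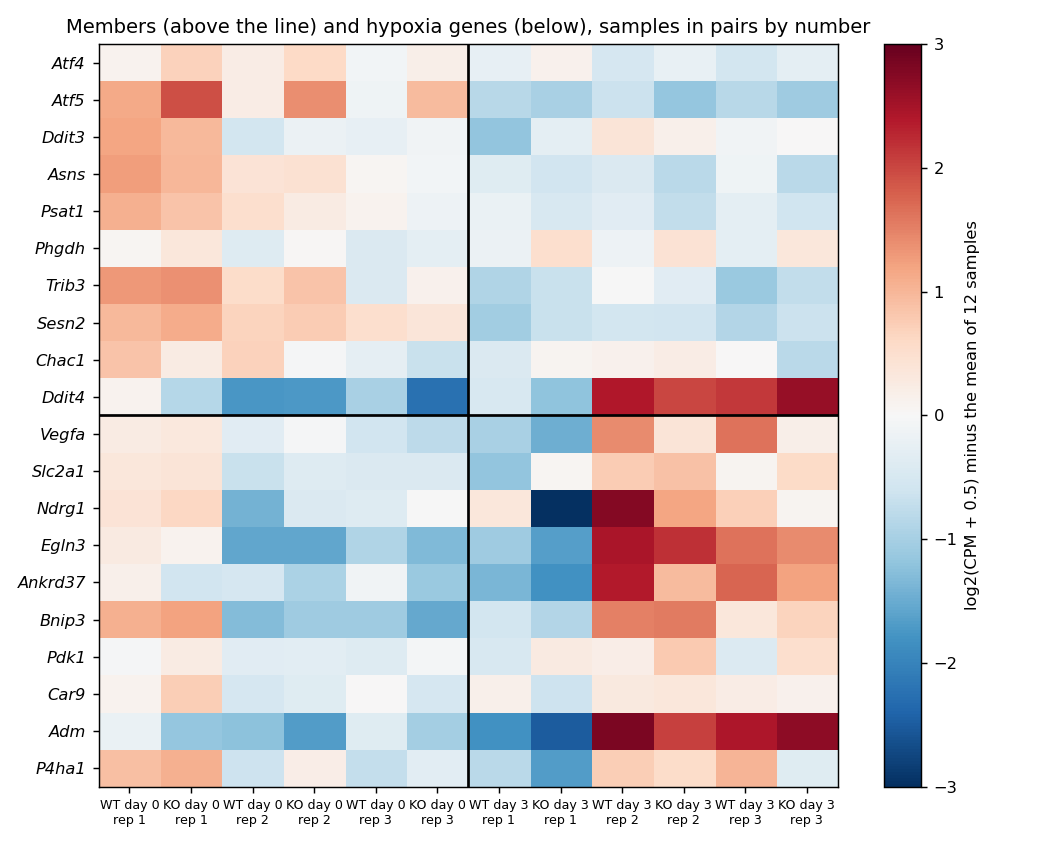
Level of each member (above the line) and each hypoxia gene (below it) as log2(CPM + 0.5) minus its mean over the 12 samples (color scale from -3 to 3), with the WT sample and the KO sample that share a day and a number side by side. Replicate 1 of day 0 is above the mean for nearly all rows, and replicate 1 of day 3 lacks the high Ddit4 and hypoxia levels of replicates 2 and 3.

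As a description of how alike the profiles were, Pearson correlations of log2(CPM + 0.5) were taken across the 12 samples, which share libraries and the split between days. With *Atf4*, the members *Atf5* (0.83), *Sesn2* (0.80) and *Trib3* (0.76) were closest, *Asns* (0.65) and *Psat1* (0.64) followed, *Ddit3* (0.24) and *Phgdh* (0.21) were weakly alike and *Ddit4* was opposed (-0.77). *Chac1* was under the mean of 5 CPM needed for this measure. Outside the list, the 6 genes most like *Atf4* were *Psmd5*, *Ube2d3*, *Rabggtb* and *Rbm39* (0.98 each), *Mettl2* (0.97) and *Tor1aip2* (0.96). Those most like the mean z-score of the members were *Kdm1a* and *Tollip* (0.96), the tRNA synthetase genes *Gars* and *Sars* (0.95) and *Cars* (0.94), and *Psph* (0.94), which completes the serine pathway after *Phgdh* and *Psat1*.

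The rest of the pathway was followed in 70 further ISR genes, of which 69 were tested. Between the genotypes the calls were 4 higher and 3 lower at day 0, and 11 higher and 2 lower at day 3 (5.8% and 4.35%, then 15.9% and 2.9%). Of all genes, 9.56% were called higher and 10.9% lower at day 0, and 14.3% higher and 16.7% lower at day 3. In this fit the share called higher at day 3 was thus close to that of all genes and the other 3 shares were smaller. Over time most fell. In WT 47 of 69 (68.1%) fell and 4 rose, with a median log2 fold change of -0.56, and in KO 41 of 69 (59.4%) fell and 2 rose, with a median of -0.38. With the block within each day, 25 of 69 were called at day 0 (12 higher, 13 lower) and 26 of 69 at day 3 (18 higher, 8 lower). That fit called 34.8% and 46.9% of all genes, so under it the share called at day 0 was not smaller than that of all genes.

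Most tRNA synthetase genes, whose enzymes charge tRNAs with amino acids, fell with time. Of 20 cytosolic genes, 17 (85%) fell and 1 rose in WT (median -0.51), and 15 (75%) fell and 1 rose in KO (median -0.34). For these and the lists that follow, the background over time is the 25.5% of all genes called lower in WT and the 27.2% in KO. For genotype it is 9.56% called higher and 10.9% lower at day 0, and 14.3% higher and 16.7% lower at day 3. On the log2 scale *Aars* gave -0.97 in WT and -0.84 in KO, *Cars* -0.76 and -0.85, and *Sars* -0.76 and -0.70, all called. The genes that rose were *Qars* in WT (0.17 ± 0.06) and *Kars* in KO (0.17 ± 0.06), named after their values were seen. Between the genotypes, *Dars* was higher in KO at both days (0.45 ± 0.06 and 0.41 ± 0.06, adjusted p = 0.00119 and 0.00123), and at day 3 *Eprs* (0.43 ± 0.10) and *Yars* (0.35 ± 0.11) were higher and *Qars* (-0.23 ± 0.06) was lower.

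The amino acid transporters fell with time too, 7 of 9 (77.8%) in WT (median -0.87) and 5 of 9 (55.6%) in KO (median -0.48). *Slc7a1*, the arginine and lysine carrier, fell by 2.02 in WT and fell by 2.84 in KO on the log2 scale. At day 3, 4 of the 9 were higher in KO (44.4%, against 14.3% of all genes called higher). The edgeR test called 0 lower, with 1 at an unadjusted p below 0.05 and 1 each called by DESeq2 and limma-voom. *Slc7a3*, another cationic amino acid carrier, stood at 100, 77.7 and 79.4 CPM in WT and at 301, 233 and 255 CPM in *Meteor* KO at day 3, with the groups far apart (1.62 ± 0.12, adjusted p = 4.69e-05). *Slc7a11*, the cystine importer, was much lower, at 1.73, 1.01 and 1.33 CPM in WT and 5.25, 1.99 and 3.83 CPM in KO (1.42 ± 0.36, adjusted p = 0.0139), and *Slc38a2* (0.54 ± 0.09) and *Slc1a5* (0.59 ± 0.19) were also higher. At day 0 edgeR called 2 of them lower in KO, *Slc1a4* (-0.98 ± 0.25) and *Slc38a2* (-0.31 ± 0.09). It called 0 higher, with 2 at an unadjusted p below 0.05, while DESeq2 called 2 higher and limma-voom 1. The change of the genotype difference between the days passed the test for *Slc7a11*, *Slc7a3* and *Slc38a2*.

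Of 10 enzymes of serine, one-carbon, proline and other amino acid metabolism, 8 (80%) fell in WT and 7 (70%) in KO. *Aldh1l2*, a mitochondrial folate enzyme, gave -2.08 ± 0.61 in WT and -2.99 ± 0.63 in KO on the log2 scale, and *Mthfd2*, of the same compartment, -1.32 ± 0.15 in WT. *Cth*, which makes cysteine from cystathionine, was the one called between the genotypes at day 0. It stood at 56.7, 46.8 and 27.4 CPM in WT and at 140, 102 and 80.2 CPM in *Meteor* KO, with the groups apart (1.31 ± 0.18, adjusted p = 0.00134). At day 3 its levels ran from 24.5 to 35.1 CPM in WT and from 23.3 to 32.5 CPM in KO, and the difference between the days was -1.32 ± 0.26 (adjusted p = 0.00883). At day 3 the called enzyme was *Got1*, an aspartate aminotransferase (0.48 ± 0.09, adjusted p = 0.00374).

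Upstream of *Atf4*, 0 of the 4 eIF2α kinase genes were called by edgeR between the genotypes at either day. At day 0 all 4 differences were positive (0.16 to 0.39). There 1 was higher in KO at an unadjusted p below 0.05, *Eif2ak3*, with its groups apart (0.39 ± 0.13, adjusted p = 0.065 by edgeR). DESeq2 and limma-voom also called 1 higher at day 0, and at day 3 these counts were 0. Over time *Eif2ak3*, the kinase of the ER (PERK), gave -0.69 ± 0.14 in WT and -1.04 ± 0.14 in KO. *Eif2ak2*, the kinase that senses double-stranded RNA (PKR), gave -0.46 ± 0.13 in WT and -0.80 ± 0.13 in KO, and all of these were called. *Eif2ak4*, the amino acid sensor GCN2, rose in WT (0.53 ± 0.10, adjusted p = 0.00129), and *Eif2ak1*, the heme sensor HRI, fell in KO (-0.40 ± 0.12, adjusted p = 0.0194).

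Of the 10 genes for eIF2, eIF2B and the eIF2α phosphatase, the same 2 were higher in KO at both days. *Ppp1r15b*, which directs the phosphatase to eIF2α in unstressed cells, stood at 332, 263 and 257 CPM in WT and 480, 395 and 364 CPM in KO at day 0 (0.54 ± 0.10, adjusted p = 0.00414), and differed by 0.70 ± 0.10 at day 3 (adjusted p = 0.00071). *Eif2s2*, the β subunit of eIF2, differed by 0.48 ± 0.09 and 0.30 ± 0.09 (adjusted p = 0.00444 and 0.0263). From day 0 to day 3, 7 of the 10 (70%) fell in WT and 5 (50%) in KO, led by *Ppp1r15a*, the stress-induced phosphatase subunit, at -1.15 ± 0.13 in WT, and by *Eif2s2*, at -1.11 ± 0.09 in KO.

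Among 6 bZIP partner genes, *Atf3*, a factor that stress induces downstream of ATF4, ran against *Atf4* between the genotypes. It stood at 22.2, 10.4 and 15.9 CPM in WT and 9.41, 7 and 6.33 CPM in *Meteor* KO at day 0 (-1.08 ± 0.31, adjusted p = 0.0351). At day 3 it stood at 5.46, 9.29 and 7.76 CPM in WT and 1.95, 2.16 and 3 CPM in KO (-1.67 ± 0.33, adjusted p = 0.00467). The groups were apart at both days. *Nfe2l2* was the 1 partner higher in KO, at day 3 (0.67 ± 0.16, adjusted p = 0.0112), and *Cebpg*, whose protein pairs with ATF4, rose with time in both genotypes (0.56 ± 0.20 in WT and 0.92 ± 0.20 in KO). Of 10 other ATF4 or CHOP targets tested, 0 were called by edgeR between the genotypes at either day, with 1 at each day at an unadjusted p below 0.05 and by DESeq2, and 0 by limma-voom. Over time *Nupr1*, a stress-induced chromatin protein, gave -3.73 ± 0.44 in WT and -2.80 ± 0.41 in KO, *Gdf15* gave -2.35 ± 0.60 and -2.03 ± 0.56, and *Vldlr* rose in WT (3.30 ± 0.98, adjusted p = 0.0161).

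**Figure D5:**
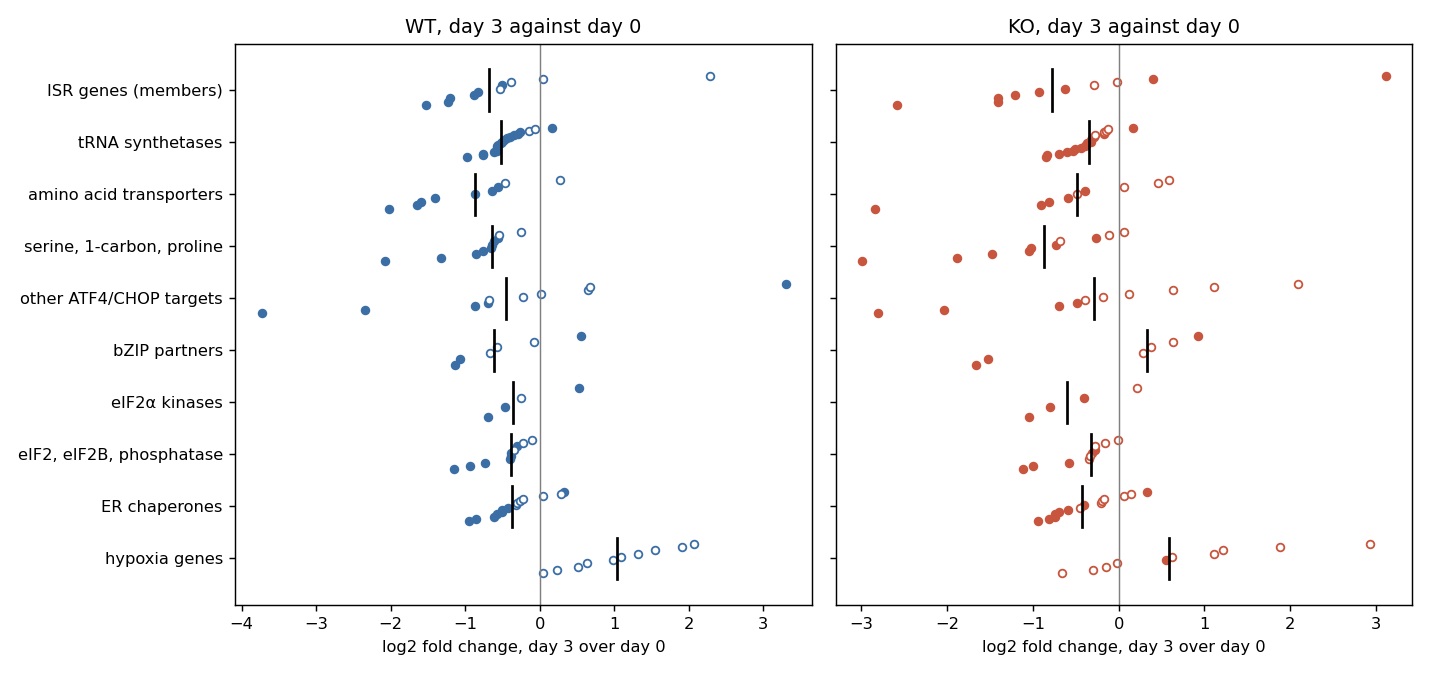
Log2 fold change of day 3 over day 0 (x axis) for each tested gene of each list, in WT (left) and Meteor KO (right), filled where the adjusted p was below 0.05, with a black line at the list median. The medians lie left of 0 for the members and for the other ISR lists, at -0.51 for tRNA synthetases and -0.87 for transporters in WT, except bZIP partners in KO (0.33), while that of the hypoxia genes lies right of 0.

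The ER chaperone genes, which answer unfolded proteins mainly through the factors ATF6 and XBP1, were set beside the ISR genes. Of 14, 7 (50%) fell and 1, *Edem1*, rose with time in each genotype. In *Meteor* KO, 2 were lower at day 0 and 2 at day 3 (14.3% at each day, close to the 10.9% and 16.7% of all genes). The number higher in KO was 0 at both days by edgeR, also at an unadjusted p below 0.05 and by DESeq2 and limma-voom. *Dnajc3*, which restrains the kinase PERK, was lower at both days (-0.80 ± 0.12 and -0.92 ± 0.12, adjusted p = 0.00162 and 0.000465), *Herpud1* was lower at day 0 (-0.87 ± 0.22) and *Xbp1* at day 3 (-0.58 ± 0.18).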

How the data were processed

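Polyadenylated RNA of 12 samples was sequenced with single reads by the submitters. Per the labels, reads were trimmed with cutadapt 1.3, aligned to GRCm38 with STAR 2.4.2a and counted per gene with HTSeq 0.6.1, and the deposited values are these raw counts, not normalized. The library kit was stranded per the labels, but the strand setting of the counting is not given in the sources used here. Reads of *Atf5*, *Ddit3* and *Psat1* thus cannot be told apart from those of at least 1 annotated gene overlapping each on the opposite strand. *Sesn2* overlaps the annotated gene *Gm12981* on its own strand, where a strand setting cannot tell reads apart. Reads aligned to several places (36.52% to 44.09% of the alignments the files account for), to no feature (6.14% to 9.32%) or to more than 1 gene (0.7% to 0.75%) stayed out of the gene counts and the library sizes.

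Gene names came from GENCODE M21, which holds 46005 of the 46517 genes. The model took all 12 samples in the quasi-likelihood framework of edgeR (version 4.0.16, R version 4.3.3) on TMM-scaled libraries, with the 4 groups and the replicate number as a block, and kept genes that exceeded 1 CPM in some sample. Adjusted p-values are Benjamini-Hochberg values over all 15673 tested genes, with a call below 0.05, and the standard error is the log2 fold change divided by the square root of the F statistic. The study's methods name a factor for the batch effect without saying what it was. The numbers are those of the labels. Deviations of WT and KO samples with the same number and day from their group means correlated in all 6 pairs (r from 0.342 to 0.729 over 10901 genes), and those of the same number on the other day did not (r from -0.246 to 0.082), so a number was taken as a pairing within a day. The check thus bears out a block within each day, not 1 block over both days, which the reported calls use as the nearest form of the study's batch factor. For the members, calls that differ with the block within each day are given beside them. For the other ISR genes only the number called by that fit is given, not the genes. CPM values are TMM scaled. The scripts were tested on simulated data. There each number carried 1 shift over both days, unlike in these samples, so that test cannot decide between the forms of the block.

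The members and gene lists were chosen with earlier results of these data known. Named genes were all 10 members and, from each other list and comparison, up to 3 called genes with the largest change, plus *Upf3b*, the transcripts of the deleted locus, and the 6 genes most like *Atf4* and the members' mean. Genes named outside this rule are so marked or complete a count of 5 or fewer and were chosen after their values were seen. *Fgf21* was the 1 listed ISR gene below the filter. Alternatives were no block, a block within each day, limma-voom (limma 3.58.1), DESeq2 1.42.0, RLE scaling, other filters, fits of the 6 samples compared and leaving out samples.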

Additional observations from a re-analysis of the deposited data

Results flagged for a closer look

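For 7 of the ISR genes the difference between *Meteor* KO and WT changed from day 0 to day 3 by the edgeR test of genotype by day (adjusted p below 0.05). These were 1 of 10 members and 6 of 69 other ISR genes tested, smaller shares than the 15.5% of all genes called. The change, as the KO minus WT log2 difference at day 3 minus that at day 0, was -1.35 for *Atf5* and -1.32 for *Cth*, both higher in KO at day 0 and not at day 3. It was 2.05 for *Slc7a11*, 1.47 for *Slc7a3* and 0.84 for *Slc38a2*, the 3 amino acid transporters. It was 0.30 for *Kars* and -0.35 for *Qars*, a pair of tRNA synthetase genes with small changes in opposite directions.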

How the results depend on the processing

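Of the alternatives, limma-voom, DESeq2, RLE scaling and both other count filters kept the number of members called in each comparison within 1.5 times the reported one. Leaving out 1 sample at a time gave 0 to 2 members at day 0 (2 reported), 1 to 2 at day 3 (2), 6 to 7 over time in WT (6), 6 to 8 over time in KO (8) and 0 to 1 for genotype by day (1). For the other ISR genes it gave 5 to 11 (7), 8 to 15 (13), 43 to 50 (51), 32 to 47 (43) and 3 to 6 (6). Without the replicate block, 1 member was called at day 0, 1 at day 3 and 0 for genotype by day, with 4 and 3 other ISR genes at day 0 and for genotype by day. With a replicate block within each day, 5, 4 and 2 members and 25, 26 and 17 other ISR genes were called in these comparisons. Fits of only the 6 samples compared called 6 members and 22 other genes at day 0 and 4 and 25 at day 3, and DESeq2 called 14 other genes at day 0. Requiring also a log2 fold change over 1 left 1 member at day 0, 0 at day 3, 3 over time in WT and 5 in KO, and 2, 3, 12, 12 and 3 other genes in the 5 comparisons. In 2 settings chosen after seeing the data, leaving out both day 0 samples numbered 1 gave 1 member and 14 other genes at day 0, 22 other genes at day 3 and 10 for genotype by day. Leaving out both day 3 samples numbered 1 gave 4 members and 17 other genes at day 0 and 1 member at day 3.

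Signs turned only for values not called in the reported fit, although *Ddit4* at day 0 was called under 3 other settings. *Ddit3* came to -0.01 at day 0 without the block, -0.03 at day 3 without the day 3 samples numbered 1, 0.41 and 0.43 over time in WT and 0.40 and 0.31 in KO, and -0.01 and -0.12 for genotype by day, without the day 0 and the day 3 samples numbered 1. *Chac1* over time in KO came to 0.00 without the block and 0.26 and 0.08 without those samples, and *Sesn2* at day 0 to -0.01 without the day 0 ones. *Ddit4* at day 3 came to 0.03 without the block, with DESeq2 and with RLE scaling, and 0.10 without the day 3 ones. *Phgdh* over time in WT came to -0.01 with DESeq2 and RLE scaling and -0.00 with 6 samples. With 1 sample left out, signs turned within -0.44 to 0.80 (day 0), -0.40 to 0.69 (day 3), -0.91 to 0.27 (WT), -0.53 to 0.08 (KO) and -0.64 to 0.65 (genotype by day) for *Ddit3*, -2.13 to 0.73, -0.81 to 0.70 and -0.80 to 2.10 for *Ddit4* at day 0, day 3 and genotype by day, and -0.15 to 0.18, -0.01 to 0.33 and -0.06 to 0.33 for *Sesn2* in the same. They turned within -0.30 to 0.13 at day 0 and -0.58 to 0.02 for genotype by day for *Asns*, -0.49 to 0.33 at day 3 and -0.14 to 0.15 in KO over time for *Chac1*, -0.23 to 0.42 at day 3 and -0.64 to 0.14 for genotype by day for *Trib3*, -0.05 to 0.14 for *Phgdh* over time in WT and -0.25 to 0.09 for *Psat1* for genotype by day. The cause of these changes was not tested. *Ddit3* (SE 0.52 at day 0) and *Ddit4* (SE 0.93) had the widest errors of the members between the genotypes, with 3 samples a group.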
